A study of Mus musculus with 12 samples.

Results

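RGC 1 (Cluster 2 of the study) and the non-mitotic radial glial cells (non-mitotic RGC, Cluster 12) are the 2 radial glial clusters of the embryonic mouse cortex compared here within each embryo. Their nuclei were taken from the cluster tables that the authors deposited. They comprised 4346 nuclei of RGC 1 and 2140 nuclei of non-mitotic RGC, 6486 of the 50550 nuclei in the 25 clusters of these tables. The nuclei came from the cortices of 11 C57BL/6J embryos that the labels place at embryonic day 14, and each embryo was 1 single nucleus RNA sequencing (snRNAseq) library. The 5 saline embryos came from dams S1 and S2, injected with saline, and the 6 EtOH embryos from dams E1 and E2, injected with 2.5 g/kg ethanol. All dams received 6 daily injections from E8.5, so injection itself was shared by both groups, and dams S1 and E1 formed batch 1 and dams S2 and E2 batch 2. With 2 dams per treatment, embryos of a treatment were littermates in part.

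Radial glial cells are the stem cells of the embryonic cortex. They line the ventricle, keep an apical and a basal process, and divide at the ventricular surface, so that their nuclei move between surface and depth with the phases of the cell cycle. Hes1, a transcriptional repressor induced by Notch signaling, keeps them undifferentiated, while Neurog2 and Eomes mark the step to the intermediate progenitor cell (IPC), which divides away from the ventricle. Top2a, the topoisomerase that untangles replicated chromosomes, accumulates in G2 and mitosis.

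Both clusters carried the radial glial genes that define their type. Of the 25 clusters, RGC 1 ranked first and non-mitotic RGC second for Hes1, and non-mitotic RGC ranked first and RGC 1 second for Pax6, the transcription factor of cortical radial glia. Each embryo gave between 177 and 753 nuclei of RGC 1, with 1317960 to 7306260 unique molecular identifiers (UMIs) in sum, and between 92 and 322 nuclei of non-mitotic RGC, with 398708 to 2456486 UMIs. Of the cell barcodes of both clusters, 5 of 6481 occurred in more than 1 library, and 0 occurred in both clusters of a library. Summed levels of markers of other cell types had overlapping ranges in both clusters. The summed level of the 8 endothelial markers lay between 10.4 and 25.8 CPM (counts divided by the UMI total of the embryo and cluster in units of 1000000) in RGC 1 and between 10.0 and 40.2 CPM in non-mitotic RGC, and the 10 microglia markers between 17.2 and 63.7 CPM and between 12.5 and 69.0 CPM. The 11 pericyte and meningeal markers summed to 25.2 to 51.6 CPM and 28.2 to 55.9 CPM, the 5 markers of oligodendrocyte precursors to at most 8.60 CPM and 8.66 CPM, and the 7 erythroid genes to 19.2 to 159.7 CPM and 22 to 207 CPM. None of these genes that could be tested differed between the clusters by the rule used below. Gad2, which makes GABA in interneurons, was found in 18.8% ± 13.1 (SD, n = 11 embryos) of RGC 1 nuclei, 17.3% ± 13.8 of non-mitotic RGC nuclei and 15.4% ± 13.4 of callosal projection neurons. Over the embryos these shares spread widely, from 6.21 to 46.5%, 6.52 to 49.6% and 2.87 to 42.1%. At an equal depth of 2000 UMIs the means were 6.24% ± 3.54, 8.52% ± 5.79 and 5.17% ± 3.70.

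Transcription of the mitotic genes is known to depend on 2 short promoter elements. The cell cycle homology region (CHR), with the letters TTTGAA, recruits the MuvB complexes that repress these genes in resting and G1 cells, and the CCAAT box binds NF-Y. Many genes of DNA replication carry E2F sites, of which the letters TTTGGCGC and TTTCGCGC were searched. The RefSeq promoters (build GRCm38.p6) of 8 genes are printed here because they stand near the far ends of the mitosis and replication lists. Among them, 6 are the genes of these lists with the highest fold toward RGC 1 that held any of these letters. Mcm2 and Mcm6 are the corresponding genes toward non-mitotic RGC, where genes outside these lists had larger folds. Each line runs 5′ to 3′ from 200 bases before to 30 bases after the transcription start, and capitals mark CHR, CCAAT and E2F letters on either strand.
Hmmr (chr11:40733408-40733637, minus strand): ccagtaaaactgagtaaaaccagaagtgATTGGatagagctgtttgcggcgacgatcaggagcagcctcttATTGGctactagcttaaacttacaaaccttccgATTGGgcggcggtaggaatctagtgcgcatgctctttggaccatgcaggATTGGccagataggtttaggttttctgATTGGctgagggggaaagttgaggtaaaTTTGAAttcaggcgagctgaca
Kif2c (chr4:117178743-117178972, minus strand): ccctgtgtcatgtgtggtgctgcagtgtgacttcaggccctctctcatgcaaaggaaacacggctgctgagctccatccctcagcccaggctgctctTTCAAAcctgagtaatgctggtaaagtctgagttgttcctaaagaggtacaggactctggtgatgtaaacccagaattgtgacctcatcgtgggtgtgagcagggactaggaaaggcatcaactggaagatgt
Kif14 (chr1:136467648-136467877, plus strand): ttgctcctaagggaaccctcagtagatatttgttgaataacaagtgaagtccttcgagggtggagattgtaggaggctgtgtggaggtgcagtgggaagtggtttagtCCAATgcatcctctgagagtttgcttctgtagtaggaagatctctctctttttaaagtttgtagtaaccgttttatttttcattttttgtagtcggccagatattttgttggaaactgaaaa
Ccnb1 (chr13:100786457-100786686, minus strand): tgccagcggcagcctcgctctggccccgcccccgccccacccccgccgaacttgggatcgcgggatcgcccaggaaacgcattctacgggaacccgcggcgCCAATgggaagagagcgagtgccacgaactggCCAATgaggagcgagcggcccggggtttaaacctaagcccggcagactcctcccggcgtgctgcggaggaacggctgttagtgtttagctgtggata
Cenpa (chr5:30666686-30666915, plus strand): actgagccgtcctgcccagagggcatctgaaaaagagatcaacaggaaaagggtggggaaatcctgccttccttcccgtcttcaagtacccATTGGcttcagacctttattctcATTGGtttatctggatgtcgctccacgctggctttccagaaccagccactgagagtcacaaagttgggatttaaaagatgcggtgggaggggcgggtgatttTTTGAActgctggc
Ube2c (chr2:164769729-164769958, plus strand): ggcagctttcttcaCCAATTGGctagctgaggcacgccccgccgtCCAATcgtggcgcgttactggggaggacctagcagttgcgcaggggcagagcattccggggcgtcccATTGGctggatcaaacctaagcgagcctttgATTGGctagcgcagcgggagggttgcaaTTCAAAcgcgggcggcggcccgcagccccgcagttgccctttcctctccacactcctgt
Mcm2 (chr6:88898751-88898980, minus strand): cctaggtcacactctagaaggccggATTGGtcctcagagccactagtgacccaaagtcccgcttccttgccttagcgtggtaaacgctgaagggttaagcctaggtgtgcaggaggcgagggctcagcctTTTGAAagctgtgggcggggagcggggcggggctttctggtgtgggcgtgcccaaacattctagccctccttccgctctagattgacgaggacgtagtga
Mcm6 (chr1:128359676-128359905, minus strand): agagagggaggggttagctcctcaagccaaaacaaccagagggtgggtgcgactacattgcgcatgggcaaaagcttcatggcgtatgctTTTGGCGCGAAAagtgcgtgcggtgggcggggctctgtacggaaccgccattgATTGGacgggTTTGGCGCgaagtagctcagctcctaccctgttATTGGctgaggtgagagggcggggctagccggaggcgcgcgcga
Hmmr, Cenpa and Ube2c on the side of RGC 1 and Mcm2 on the side of non-mitotic RGC held both CHR and CCAAT letters, Kif2c held a CHR alone, Kif14 a CCAAT box alone, Ccnb1 held 2 CCAAT boxes and no CHR letters in this window, and Mcm6 held E2F letters at positions -110, -106 and -47 from the start, the first 2 of which overlap. Mcm6 also held CCAAT boxes at -57 and -14. In Ube2c, the 2 CCAAT boxes at -186 and -183, on opposite strands, overlap and form 1 run of capitals. Over the tested genes of the 5 mitosis lists described below, 43 of 95 genes with a RefSeq promoter (45.3%) held the CHR letters, against 855 of 8075 (10.6%) of all genes tested and 13.8% of all 32851 promoters, and 8 of 54 replication genes (14.8%) held them. The CCAAT letters stood in 63 of 95 (66.3%), against 39.5% of genes tested and 31.7% of promoters, but they were not limited to mitosis genes, since 32 of 54 replication genes (59.3%) and 9 of 14 neurogenic genes (64.3%) held them too. E2F letters stood in 10 of 54 replication genes (18.5%), and 6 of 95 mitosis genes (6.32%), against 1.51% of genes tested and 0.648% of promoters. These are matches of letters, and occupancy of the promoters was not measured.

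RGC 1 nuclei held more RNA molecules. The median number of UMIs per nucleus lay between 4263.5 and 9599.5 over the embryos in RGC 1 (median 6651) and between 2768.5 and 6410.5 in non-mitotic RGC (median 4625). The ratio of the medians ranged from 1.38 to 1.55, with RGC 1 above non-mitotic RGC in each of the 11 embryos, and its geometric mean was 1.49 (exact two-sided sign-flip permutation test, p = 0.000977, the smallest this design can give). Genes detected per nucleus were 1.28-fold higher. All levels are therefore given as CPM, and shares of nuclei after each nucleus was thinned to 2000 UMIs, which left out 9 nuclei of RGC 1 and 40 of non-mitotic RGC.

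The authors named non-mitotic RGC for its low levels of proliferation markers in these nuclei, so the shares of nuclei with mitotic transcripts describe that choice and do not test it. After thinning, 59.7% ± 5.38 (SD, n = 11 embryos) of RGC 1 nuclei had a Top2a UMI, against 11.2% ± 4.28 of non-mitotic RGC and 2.31% ± 1.49 of callosal projection neurons (Cluster 1), postmitotic cells that should lack it. Without thinning the shares were 76.2%, 20.8% and 6.77%, at a median depth over embryos of 6651, 4625 and 6368 UMIs per nucleus. Of the 12 genes by which the authors called the G2/M phase, at least 1 UMI was found in 74.0% ± 4.95 of RGC 1, 29.2% ± 5.85 of non-mitotic RGC and 13.1% ± 3.26 of callosal neurons, and at least 2 UMIs in 57.9%, 7.84% and 1.57%. Over the embryos, the Top2a share lay between 50.7 and 70.5% in RGC 1, between 4.82 and 18.4% in non-mitotic RGC and between 0.483 and 5.14% in callosal neurons, so RGC 1 was clear of both, while the lowest embryo of non-mitotic RGC lay within the range of callosal neurons. Within each embryo, non-mitotic RGC had the higher share of these 2, also in that lowest embryo, E2-4 (4.82% against 1.18%). The authors' S phase genes separated the radial glial clusters far less, with 66.9% ± 4.57 of RGC 1, 57.8% ± 7.08 of non-mitotic RGC and 19.2% ± 1.97 of callosal neurons. At a depth of 4000 UMIs the S phase difference was 1.72 points instead of 9.13, but that depth left out 561 of 2140 nuclei of non-mitotic RGC and 258 of 4346 of RGC 1. Both gene lists are those with which the authors called phases.

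Counted over all genes of the mitosis lists, the 2 clusters overlapped. A nucleus of RGC 1 had a median of 34 of these UMIs among its 2000 (5th to 95th percentile 7 to 65.2), a nucleus of non-mitotic RGC 11 (5 to 27) and a callosal neuron 6 (2 to 11). In RGC 1, 60.5% of the nuclei lay above the 95th percentile of non-mitotic RGC, and 16.3% lay at or below its median.

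**Figure D1:**
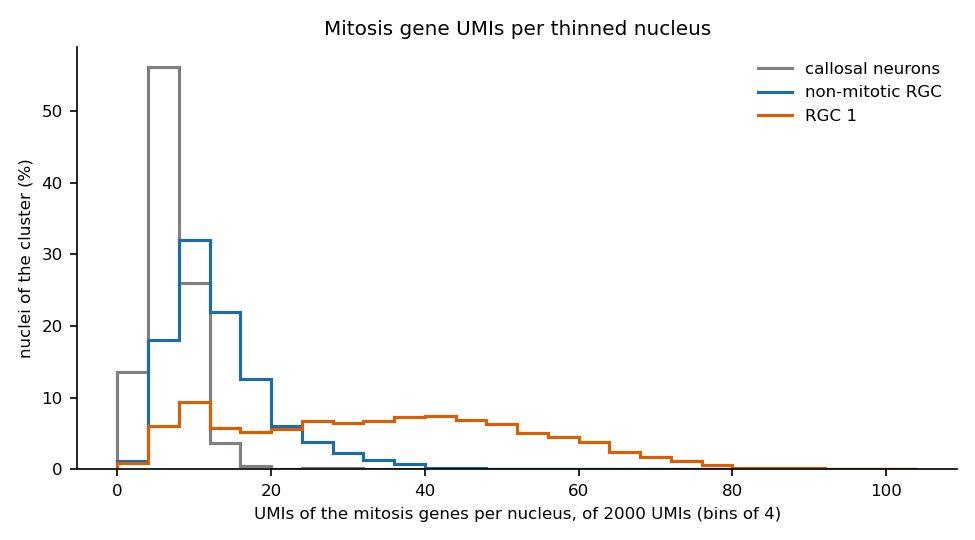
Percent of the nuclei of RGC 1, non-mitotic RGC and callosal neurons (y axis) by the number of UMIs of the 119 mitosis genes in a nucleus thinned to 2000 UMIs (x axis, bins of 4). RGC 1 (median 34) has its tallest bin, with 9.38% of nuclei, at the low values where non-mitotic RGC (median 11) lies, and a broad second rise that reaches 7.38% of nuclei per bin, and callosal neurons (median 6) lie lowest.

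Expression was compared on sums of counts, 1 sum per gene for each cluster of an embryo, with RGC 1 set against non-mitotic RGC of the same embryo. Genes counted as called had an edgeR adjusted p below 0.05 and a ratio below 0.8 in either direction of the comparison. Since the authors drew the clusters from the expression of the same nuclei, calls between the clusters describe how far they differ and no p is given for them. Of 10559 genes tested, 1063 were higher in RGC 1 (10.1%) and 984 were higher in non-mitotic RGC (9.32%), together 19.4%. Beyond 2-fold, 341 were higher in RGC 1 (3.23%) and 60 in non-mitotic RGC (0.568%), so the large differences lay mostly on the side of RGC 1. The levels of 307 genes (2.91%) in RGC 1 were above those in non-mitotic RGC with no overlap over the 11 embryos, and those of 114 genes (1.08%) were below. The median log2 fold change of all genes tested was -0.03. With nuclei thinned to equal depth and taken in equal numbers, 614 of 5784 genes (10.6%) were higher and 504 (8.71%) lower.

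Top2a, at chromosome 11, 98992943 to 99024189, minus strand (GENCODE M21, GRCm38), lay between 514 and 933 CPM in RGC 1 (median 722) and between 62.7 and 148 CPM in non-mitotic RGC (median 81.1). The lowest embryo of RGC 1 was above the highest of non-mitotic RGC, and the log2 fold change was 2.96 ± 0.10 (SE). Mki67, which coats mitotic chromosomes, lay between 218 and 352 CPM in RGC 1 (median 271) and between 44.0 and 116 CPM in non-mitotic RGC (median 67.7), again without overlap, with a log2 fold change of 2.03 ± 0.11. Hes1, at chromosome 16, 30064384 to 30067796, plus strand, lay between 63.4 and 146 CPM in RGC 1 (median 92.5) and between 46.0 and 89.2 CPM in non-mitotic RGC (median 64.7). It was higher in RGC 1 in 11 of 11 embryos, by 0.57 ± 0.06 on the log2 scale, but the ranges overlapped. Hes5, the other main Hes repressor of radial glia (0.05), and Sox2, a stem cell factor (0.07), were not called. Pax6 was lower in RGC 1 in 11 of 11 embryos, between 263 and 412 CPM in RGC 1 (median 340.4) and between 349 and 499 CPM in non-mitotic RGC (median 427), but its log2 fold change of -0.27 ± 0.04 lay under the fold required. Of genes of other lineages, Neurod2 of projection neurons (-0.11) and Gad2 of interneurons (-0.07), were not called, and Dlx1, an interneuron factor, was low in both and higher in RGC 1 (0.53 ± 0.17), between 6.07 and 19.7 CPM in RGC 1 (median 10.8) and between 2.51 and 21.7 CPM in non-mitotic RGC (median 7.54). It was not called without embryo S2-4 (0.43).

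**Figure D2:**
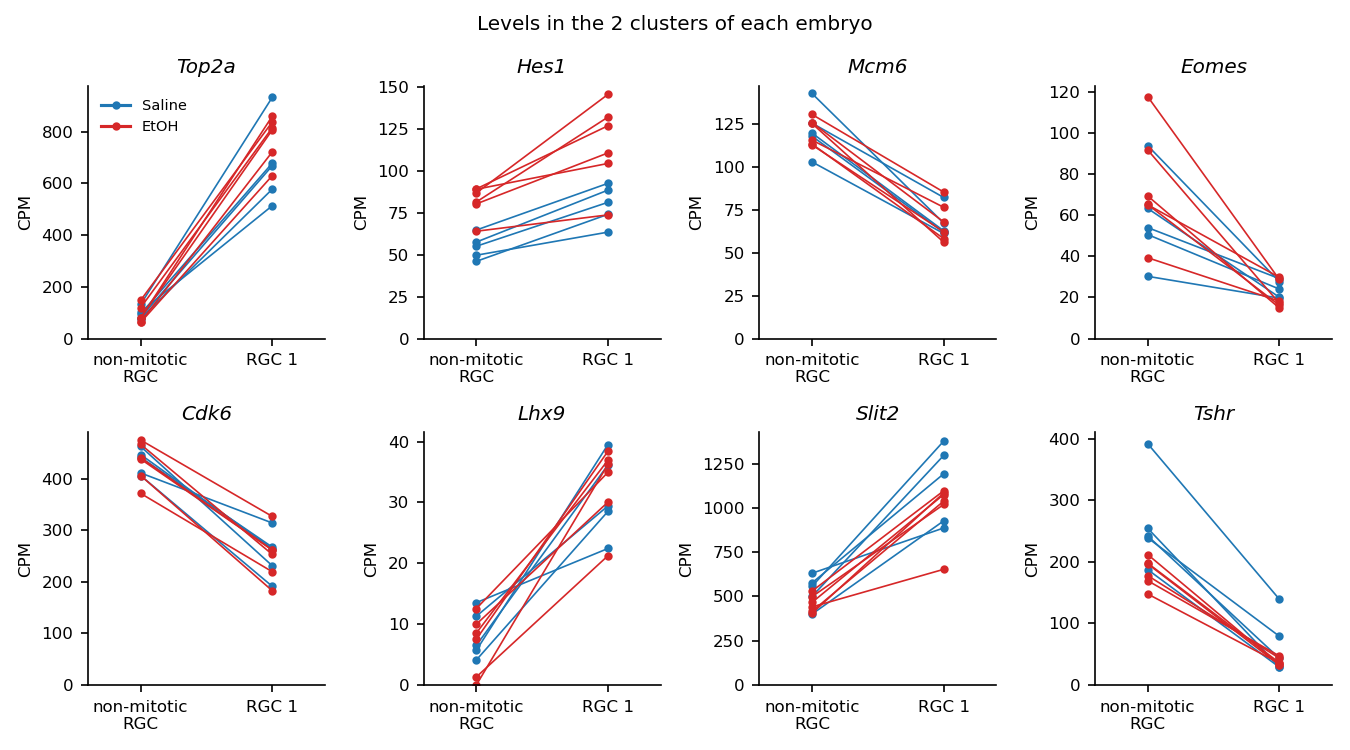
Levels in CPM (y axis, from 0) of 8 genes in non-mitotic RGC and RGC 1, with a line joining the clusters of each of the 5 saline (blue) and 6 EtOH (red) embryos. Top2a, Hes1, Lhx9 and Slit2 are higher in RGC 1 in all 11 embryos, and Mcm6, Eomes, Cdk6 and Tshr are lower in all 11.

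Of the 10 genes that led the difference toward RGC 1, 5 stand in the lists of mitosis genes, namely Hmmr, Kif2c, Kif14, Ccnb1 and Cenpa. Pif1, a DNA helicase, had the largest log2 fold change (4.40 ± 0.17) and lay between 37.0 and 70.1 CPM in RGC 1 (median 53.7) and between 0 and 6.28 CPM in non-mitotic RGC (median 2.17). Hmmr, which organizes spindle poles and whose promoter is printed above, lay between 85.8 and 156 CPM in RGC 1 (median 124) and between 0 and 10.0 CPM in non-mitotic RGC (median 6.56), a difference of 4.30 ± 0.13. Depdc1b (4.01) and Depdc1a (3.96), the nuclease gene Ankle1 (3.96), the kinesin genes Kif2c (3.95) and Kif14 (3.94), the mitotic cyclin gene Ccnb1 (3.93) and Cenpa, the histone of centromeres (3.91), followed. For each of these genes all 11 embryos of RGC 1 were above all 11 of non-mitotic RGC. Mybpc1, known as a gene of the muscle sarcomere, lay between 14.1 and 79.6 CPM in RGC 1 (median 56.9) and between 0 and 7.52 CPM in non-mitotic RGC (median 2.90), a log2 fold change of 4.13 ± 0.15, and RGC 1 ranked first of the 25 clusters for it.

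The 5 lists of mitosis genes moved nearly as a block. Of 117 genes tested, 106 were higher in RGC 1 and 0 lower, against 10.1% of all genes tested that were higher, with a median log2 fold change of 2.41. By over 2-fold 92 were higher, against 3.23% of all genes tested. The ranges of 93 did not overlap, against 2.91% of all genes tested without overlap toward RGC 1. All 32 genes of the kinetochore and spindle checkpoint were higher (median 2.52), 26 of 27 spindle motors and microtubule proteins (2.83), 12 of 12 cytokinesis genes (2.92) and 21 of 22 mitotic cyclins, kinases and subunits of the anaphase complex (2.31). Topoisomerase, condensin and cohesin genes split, with 15 of 24 higher and a median of 1.01. Within that list Cdca2, which targets a phosphatase to chromatin as mitosis ends (3.14 ± 0.11), Top2a, and Esco2, which acetylates cohesin in S phase (2.76 ± 0.12), led, while the core cohesin genes Smc3 (0.05), Smc1a (0.22) and Stag2 (0.07) and Top2b, the topoisomerase of neurons (-0.15), were not called.

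Within the kinetochore list Cenpa had the largest fold, and Knl1, the scaffold of the outer kinetochore (3.13 ± 0.10), lay between 289 and 431 CPM in RGC 1 (median 368) and between 22.6 and 76.0 CPM in non-mitotic RGC (median 44.2). In cytokinesis, Kif23, the kinesin of the central spindle (3.63 ± 0.08), lay between 178 and 314 CPM in RGC 1 (median 262) and between 11.1 and 30.1 CPM in non-mitotic RGC (median 20.7), and Iqgap3 (3.55 ± 0.14) and Arhgap11a (3.05 ± 0.15) also had large folds. Among the cyclins and kinases, Ccnb1 was followed by Ube2c, the ubiquitin-conjugating enzyme of the anaphase complex (3.75 ± 0.24), and Cdc25c, the phosphatase that starts mitosis (3.62 ± 0.11). Of the authors' own G2/M genes 9 of 10 tested were higher, beside 10.1% of all genes tested, among them Cdc20, the activator of the anaphase complex (3.34 ± 0.23). Over the 25 clusters, RGC 1 ranked first for 29 and second for 71 of the 106 called mitosis genes, and the mitotic IPC (Cluster 17) ranked first for 73. Non-mitotic RGC had a median place of 7.

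**Figure D3:**
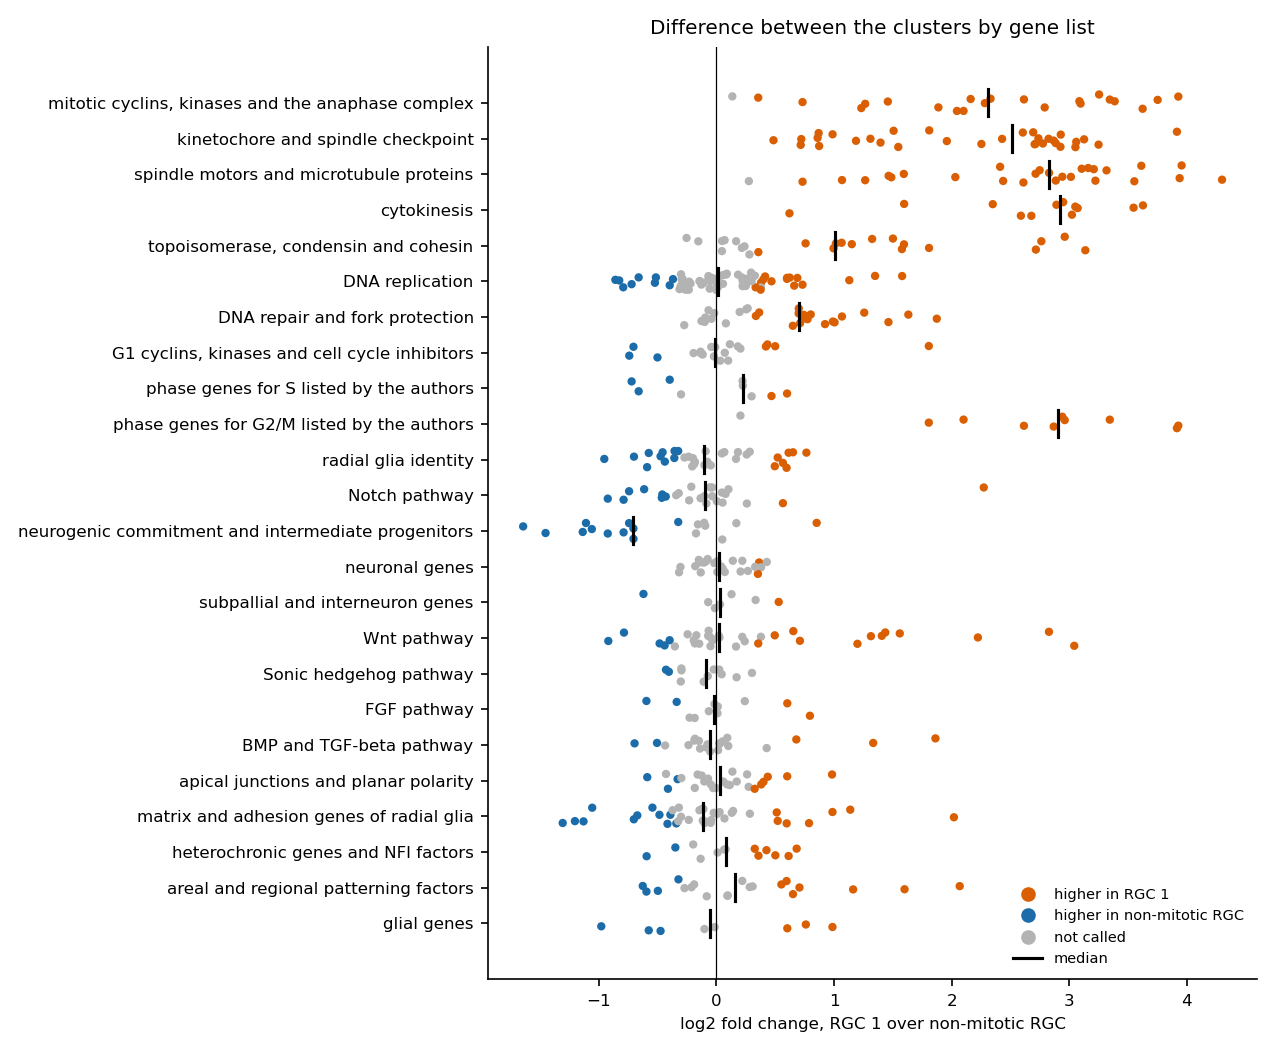
Log2 fold change of RGC 1 over non-mitotic RGC (x axis) for each tested gene of the lists with 5 or more tested genes (rows), coloured by the call, with the median of each list as a black bar. The 5 mitosis lists have medians of 1.01 to 2.92 and no gene called higher in non-mitotic RGC, while DNA replication genes (median 0.01) have calls on both sides and neurogenic genes (median -0.71) lie mostly on the side of non-mitotic RGC.

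Replication genes did not follow the mitotic genes. Of 66 tested, 15 were higher in RGC 1 and 9 were lower, with a median of 0.01, beside 10.1% and 9.32% of all genes tested. The 9 lower genes included all 6 subunits of the Mcm2 to Mcm7 helicase, which is loaded onto DNA in G1 and opens it in S phase. This subset was named after its values were seen, and in nuclei thinned to equal depth and number 3 of the 5 that could be tested were called lower (median -0.54 against -0.76 over all nuclei), Mcm7 not among them (-0.29). Mcm6, at chromosome 1, 128331590 to 128359664, minus strand, lay between 103 and 143 CPM in non-mitotic RGC (median 119.8) and between 56.2 and 85.4 CPM in RGC 1 (median 62.8), so all embryos of non-mitotic RGC were above all embryos of RGC 1, and the log2 fold change was -0.79 ± 0.06. Mcm2 (-0.86 ± 0.11), Mcm4 (-0.83 ± 0.10), Mcm3 (-0.72 ± 0.09), Mcm5 (-0.52 ± 0.10) and Mcm7 (-0.40 ± 0.08) were lower in RGC 1 with overlapping ranges, and non-mitotic RGC ranked first of the 25 clusters for all 6 genes. In sum, the 6 genes made up between 262 and 388 CPM in non-mitotic RGC and between 163 and 257 CPM in RGC 1. The helicase subunit Gins2 (-0.66 ± 0.13), the G1/S factor E2f1 (-0.51) and the histone chaperone Chaf1b (-0.37) were the other lower genes.

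The replication genes on the side of RGC 1 were led by E2f8 (1.58 ± 0.13) and E2f7 (1.13 ± 0.07), the atypical E2F repressors that shut G1/S genes off late in S phase, and Ticrr, which loads Cdc45 at origins (1.35 ± 0.07). E2f7 lay between 86.6 and 131 CPM in RGC 1 (median 98.8) and between 25.1 and 69.3 CPM in non-mitotic RGC (median 45.2), without overlap. Clspn, a mediator of the replication checkpoint (0.60 ± 0.08), and Atad2 (0.47 ± 0.05) were higher with overlapping ranges. Of the authors' 9 S phase genes, 2 were higher and 3 were lower. DNA repair and fork protection genes lay on the side of RGC 1, with 19 of 30 higher, 0 lower and a median of 0.70, beside 10.1% and 9.32% of all genes tested. The kinase gene Chek2 (1.87 ± 0.09), Fancd2 of the Fanconi pathway (1.63 ± 0.08) and the polymerase gene Polq (1.46 ± 0.07) led them, each without overlap between the clusters.

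Of 21 G1 regulators tested, 4 were higher in RGC 1 and 3 lower, beside 10.1% and 9.32% of all genes tested. Cdk6, the kinase that drives G1 progression with D cyclins, lay between 372 and 475 CPM in non-mitotic RGC (median 441) and between 183 and 327 CPM in RGC 1 (median 262), with no overlap and a log2 fold change of -0.74 ± 0.05. Ccnd1 (-0.50 ± 0.14) was lower as well, at between 8.25 and 17.2 CPM in RGC 1 (median 12.2) and between 7.52 and 28.9 CPM in non-mitotic RGC (median 16.3). Ccnd2, the D cyclin of the radial glial endfoot, was lower in CPM in all 11 embryos, although after TMM scaling 1 embryo had a log2 ratio just above 0, with a log2 fold change of only -0.19 ± 0.04, which was not called. The antiproliferative gene Btg2, known as a mark of progenitors about to make neurons, was lower without overlap (-0.71 ± 0.08). Cdkn2c, an inhibitor of Cdk4 and Cdk6 (1.81), E2f5 (0.50 ± 0.08), Btg1 (0.43 ± 0.08) and Rbl1, a relative of the retinoblastoma protein (0.42 ± 0.05), were higher in RGC 1. E2f5 was not called in thinned nuclei (0.26 ± 0.15) or in nuclei without G2/M transcripts (0.11 ± 0.13), and in the latter Rbl1 was not called either (-0.04 ± 0.08).

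Genes of neurogenic commitment were lower in RGC 1. Of 18 tested, 11 were lower and 1 was higher, with a median of -0.71, where 9.32% of all genes tested were lower. Eomes, at chromosome 9, 118478212 to 118486132, plus strand, lay between 30.3 and 118 CPM in non-mitotic RGC (median 65.2) and between 14.9 and 29.8 CPM in RGC 1 (median 20.1), so the clusters did not overlap, and the log2 fold change was -1.45 ± 0.15. Neurog2, the proneural factor of the cortex, lay between 56.5 and 90.3 CPM in non-mitotic RGC (median 65.8) and between 23.5 and 33.6 CPM in RGC 1 (median 29.3), also without overlap (-1.14 ± 0.08), and Insm1, which promotes the formation of basal progenitors, lay between 10.1 and 33.4 CPM in non-mitotic RGC (median 18.8) and between 4.60 and 8.78 CPM in RGC 1 (median 5.73) (-1.64 ± 0.16). Eomes UMIs were found in 8.75% ± 3.06 of thinned non-mitotic RGC nuclei, 2.70% ± 1.4 of RGC 1 and 1.63% ± 0.605 of callosal neurons. The Notch ligand gene Dll1 (-0.92 ± 0.14), which committed cells present to their neighbours, Hes6 (-0.79 ± 0.14), an antagonist of Hes1, and the Notch-modifying enzyme gene Mfng (-0.74 ± 0.12) stand in this list as well as in the Notch list, where 7 of 25 genes were lower in RGC 1 and 2 were higher. The 2 higher Notch genes were Hes1 and Hey2 (2.27), and the receptors Notch1 (-0.23), Notch2 (0.05) and Notch3 (-0.14) were not called. Of 26 neuronal genes, 2 were higher, Map2 (0.36 ± 0.04) and Dab1 (0.35 ± 0.04), and 0 lower, beside 10.1% and 9.32% of all genes tested. In thinned nuclei Dab1 was not called (0.32 ± 0.05), and of 23 neuronal genes tested there 2 were higher and 1 lower.

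Radial glial identity genes were called on both sides, with 7 of 33 higher in RGC 1, 10 lower and a median of -0.10, beside 10.1% and 9.32% of all genes tested. Toward RGC 1, the largest folds were those of Rfx4, a ciliary gene regulator (0.76 ± 0.05), Emx2 (0.65 ± 0.09), a factor of the caudal and medial cortex, and Zbtb20, a factor of the hippocampal primordium (0.61 ± 0.06). Rfx4 lay between 219 and 274 CPM in RGC 1 (median 244) and between 135 and 178 CPM in non-mitotic RGC (median 147), without overlap. Toward non-mitotic RGC they were Veph1 (-0.95 ± 0.10), the endothelin receptor gene Ednrb (-0.70 ± 0.08) and Mfge8 (-0.59 ± 0.14), and the glutamate transporter gene Slc1a3 (-0.48 ± 0.08) was lower in RGC 1 in 11 of 11 embryos. Nes (0.17), Vim (-0.21) and Sox9 (0.26), widely used radial glial genes, were not called.

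The clusters differed in genes of regional patterning, which the names of the clusters do not mention. Of 20 areal and regional factors, 7 were higher in RGC 1 and 4 were lower, beside 10.1% and 9.32% of all genes tested. With nuclei thinned to equal depth and number, 4 of 16 were higher and 6 lower (median -0.16), beside 10.6% and 8.71% of all genes tested there. Lhx9, a factor of the medial pallium, at chromosome 1, 138825186 to 138848577, minus strand, lay between 21.2 and 39.5 CPM in RGC 1 (median 35.0) and between 0 and 13.5 CPM in non-mitotic RGC (median 7.52). It did not overlap and had a log2 fold change of 2.07 ± 0.22. Nr2f2, a factor of caudal and medial territories (1.60 ± 0.14), and Dmrt3, of the medial cortex (1.16 ± 0.14), were higher in RGC 1 in all 11 embryos. Toward non-mitotic RGC lay Meis1 (-0.63 ± 0.09), Etv1 (-0.60 ± 0.08) and Meis2 (-0.50 ± 0.03), and Meis2, a homeobox factor strong in lateral pallium and striatum, lay between 5311 and 7448 CPM in non-mitotic RGC (median 6937) and between 3557 and 5619 CPM in RGC 1 (median 4538).

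Of 35 Wnt pathway genes tested, 12 were higher in RGC 1 and 5 were lower (median 0.02), beside 10.1% and 9.32% of all genes tested. With nuclei thinned to equal depth and number, 3 of 20 were higher and 4 lower (median -0.08), beside 10.6% and 8.71% of all genes tested there. Rnf43, a ligase that removes Frizzled receptors and is itself a target of Wnt signaling, lay between 13.2 and 46.4 CPM in RGC 1 (median 31.6) and between 0 and 7.52 CPM in non-mitotic RGC (median 2.74), a log2 fold change of 3.04 ± 0.23, without overlap. Wnt8b, a ligand gene of the cortical hem and adjoining medial cortex, lay between 7.59 and 46.9 CPM in RGC 1 (median 18.3) and between 0 and 8.79 CPM in non-mitotic RGC (median 1.63) (2.83 ± 0.23), and Apcdd1, an inhibitor and target of the pathway, lay between 24.3 and 80.3 CPM in RGC 1 (median 49.8) and between 2.51 and 14.6 CPM in non-mitotic RGC (median 11.9) (2.22 ± 0.15). Axin2 (1.56), Nkd1 (1.41), Lef1 (1.31) and Rspo3 (1.20), which encode feedback inhibitors, a nuclear effector and an agonist, were called in the same direction. Toward non-mitotic RGC lay the receptor gene Fzd8 (-0.92 ± 0.11), Lrp4 (-0.79 ± 0.06), the secreted antagonist gene Sfrp1 (-0.48 ± 0.11), Wnt7a (-0.44) and Fzd2 (-0.40). Lrp4 lay between 306 and 518 CPM in non-mitotic RGC (median 360.4) and between 186 and 243 CPM in RGC 1 (median 200.1), without overlap. Of the hem marker genes, Rspo2 was not among the genes tested.

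Of 39 matrix and adhesion genes, 7 were higher in RGC 1 and 11 lower, beside 10.1% and 9.32% of all genes tested. Slit2, the repellent ligand of Robo receptors, lay between 653 and 1377 CPM in RGC 1 (median 1076) and between 400.5 and 631 CPM in non-mitotic RGC (median 499), without overlap (1.14 ± 0.10), and Adamts19, a secreted protease (2.02 ± 0.16), and Bcan, the proteoglycan brevican (0.99 ± 0.16), were higher too. Sema5a, a membrane semaphorin, lay between 1713 and 2479 CPM in non-mitotic RGC (median 1982) and between 620.4 and 1201 CPM in RGC 1 (median 816), without overlap (-1.20 ± 0.07), and Thsd4 (-1.31 ± 0.10) and Ntn4, which encodes netrin 4 (-1.13 ± 0.10), were lower without overlap. In the BMP and TGF-beta list, 3 of 21 genes were higher and 2 lower, near the shares of all genes tested (10.1% and 9.32%). Ltbp1, which anchors latent TGF-beta in the matrix, lay between 226 and 960.3 CPM in RGC 1 (median 779) and between 78.5 and 334 CPM in non-mitotic RGC (median 235) (1.86 ± 0.06), Tgfb2 was higher (0.68 ± 0.06), and the receptor gene Bmpr1b (-0.70 ± 0.07) and the secreted regulator gene Bmper (-0.51 ± 0.05) were lower.

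The counts of FGF, Sonic hedgehog, junction, heterochronic and glial genes stand beside 10.1% of all genes tested that were higher and 9.32% that were lower. Of 11 FGF pathway genes, Flrt3 (0.79 ± 0.09) and the receptor gene Fgfr3 (0.60 ± 0.07) were higher and Etv1 and Etv5, transcriptional effectors of the pathway (-0.34 ± 0.09), were lower. Etv5 was not called, at -0.29 to -0.32, without any 1 of the embryos E1-1, E1-2, E2-3, E2-4, S1-1, S1-2, S2-2 and S2-4, nor in thinned nuclei (-0.30 ± 0.14). Of 12 Sonic hedgehog genes, 2 were lower in RGC 1 and 0 higher, and these were the coreceptor gene Cdon (-0.43 ± 0.04) and Scube1 (-0.40 ± 0.10). Of 26 genes of apical junctions and planar polarity, 6 were higher, led by the atypical cadherin gene Fat3 (0.98 ± 0.06), and 3 were lower, led by Shroom3, which constricts apical surfaces (-0.59 ± 0.05). Shroom3 and Magi1 (-0.41 ± 0.03) did not overlap between the clusters. In the heterochronic list, Nfic (0.68 ± 0.08), Zbtb20 and Nfix (0.50 ± 0.04), of which Nfix promotes later progenitor states, were among 6 of 13 genes higher in RGC 1, and Hmga2 (-0.59 ± 0.10) and Lin28b (-0.35 ± 0.12), genes of early progenitors, were lower. Lin28b was not called without embryo S1-1 (-0.29), S1-2 (-0.31) or S2-1 (-0.28), and in EtOH embryos alone its estimate turned to 0.045. Glial genes split with 3 of 8 on each side, Gja1, the gap junction gene (0.76 ± 0.13), with Fgfr3 and Bcan on the side of RGC 1, and the neurotrophin receptor gene Ntrk2 (-0.98 ± 0.06) on the other. Of 2 immediate early and heat shock genes tested 0 were called.

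The genes that led toward non-mitotic RGC had varied known roles. Tshr, the thyrotropin receptor gene, at chromosome 12, 91384563 to 91549808, plus strand, lay between 148 and 392 CPM in non-mitotic RGC (median 198) and between 29.0 and 139 CPM in RGC 1 (median 36.3), without overlap (-2.18 ± 0.17). Hs3st3a1, a heparan sulfate sulfotransferase gene, had the largest log2 fold change (-2.27 ± 0.29) at low levels, between 5.02 and 60.4 CPM in non-mitotic RGC (median 19.5) and between 0.547 and 16 CPM in RGC 1 (median 4.68), with overlap. Gna14, a G protein subunit gene (-1.59 ± 0.13), and Ankfn1 (-1.41 ± 0.08) were without overlap. Kcnrg (-1.51 ± 0.11), Gm17057 (-1.50 ± 0.14), Smoc1, a secreted regulator of BMP signaling (-1.39 ± 0.08), and Stac (-1.39 ± 0.19) completed the first 10 together with Insm1 and Eomes. Non-mitotic RGC ranked first of the 25 clusters for Hs3st3a1, Tshr and Gna14.

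Which of these differences were also found among nuclei without G2/M transcripts at 2000 UMIs was asked with an alternative chosen after the data were seen. Nuclei without a UMI of the authors' 12 G2/M genes at 2000 UMIs were kept, and all their counts were used. They numbered 1122 of RGC 1 (39 to 216 per embryo) and 1458 of non-mitotic RGC (70 to 226). At full depth these nuclei could still hold G2/M UMIs, and RGC 1 nuclei were the deeper ones. Of the authors' G2/M genes, 4 could be tested there and 3 were called higher in RGC 1 (median 1.11), beside 8.91% of all genes tested. Of 7556 genes tested, 673 were higher in RGC 1 (8.91%) and 506 were lower (6.70%). Of the genes called over all nuclei, 449 were called higher and 350 lower again, and 2 were called the opposite way. The Mcm2 to Mcm7 genes were no longer called: 0 of 6 were lower, Mcm6 at -0.14 ± 0.08 and Mcm2 at -0.25 ± 0.15, and over the replication list 15 of 57 were higher and 0 lower. Of the neurogenic genes 4 of 14 were lower, among them Eomes (-1.01 ± 0.16) and Neurog2 (-0.69 ± 0.12). Of 70 mitosis genes tested, 51 were still higher, with a median of 0.77, and Top2a differed by 1.84 ± 0.17, although Top2a is 1 of the genes by which these nuclei were chosen.

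Estimates in these nuclei are given for some genes of the regional, Wnt, matrix and G1 lists, picked after their values were seen. Lhx9 was at 2.64 ± 0.26, Nr2f2 at 1.99 ± 0.25, Apcdd1 at 3.28 ± 0.18 and Slit2 at 1.67 ± 0.11 on the log2 scale, and toward the other side Meis2 was at -1.03 ± 0.05, Fzd8 at -1.58 ± 0.18, Thsd4 at -2.60 ± 0.17 and Cdk6 at -1.27 ± 0.10. Pax6 passed the fold required there (-0.65 ± 0.06), as did Ccnd2 (-0.45 ± 0.06). Of the areal factors, 9 of 19 were higher in RGC 1 and 6 were lower, with a list median of 0.009 against 0.16 over all nuclei, and of the Wnt genes 9 of 26 were higher and 7 were lower. Among all genes tested in these nuclei, 8.91% were higher and 6.7% lower. Whether the estimates of these genes differed between the 2 selections of nuclei was not tested, since the selections share nuclei.

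**Figure D4:**
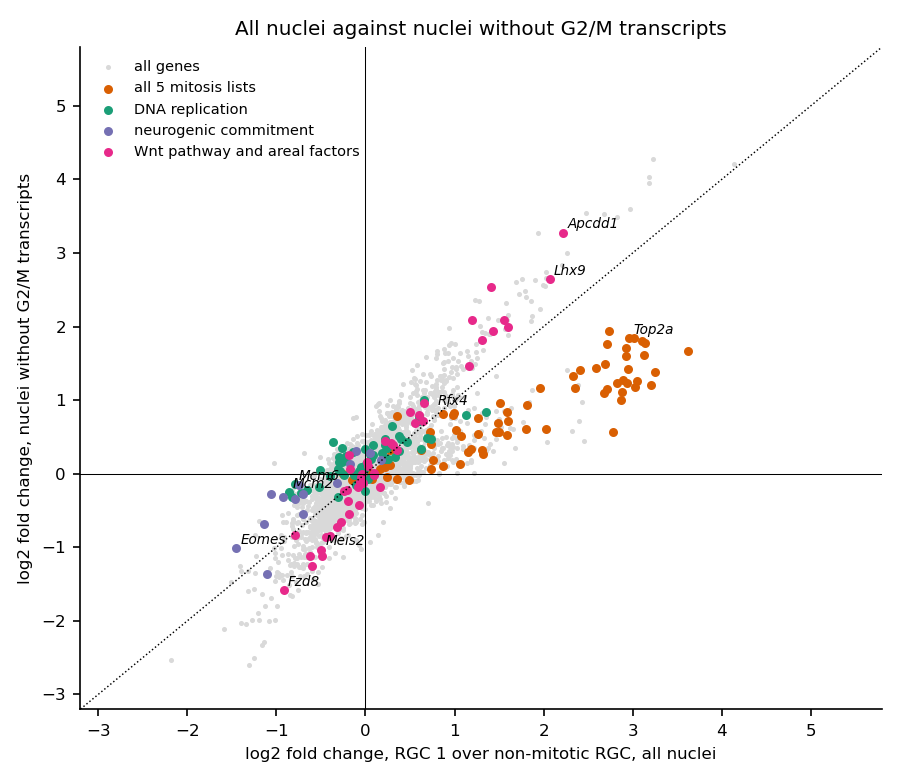
Log2 fold change of RGC 1 over non-mitotic RGC over all nuclei (x axis) and over nuclei without G2/M transcripts (y axis) for 7556 genes, with gene lists in colour and the line of equal values dotted. Mitosis genes lie below the line on the right, Mcm2 and Mcm6 lie near 0 on the y axis, and Apcdd1 and Lhx9 lie above the line.

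A mitotic and a non-mitotic cluster can also be compared between the 2 IPC clusters, mitotic IPC (Cluster 17) and non-mitotic IPC (Cluster 6), which come from the same embryos. The non-mitotic clusters were not alike in cell cycle genes. Mean Top2a was 94.7 CPM in non-mitotic RGC and 28.4 CPM in non-mitotic IPC, and mean Mcm6 121 and 34.4 CPM. Whether both pairs split the cell cycle at the same point was not tested. In that pair 33.9% of 9506 genes tested were called, 18.5% higher and 15.4% lower in mitotic IPC, 109 of 113 mitosis genes were higher in the mitotic cluster (median 3.57), and 0 lower. The difference between the pairs was taken in 1 fit of the 4 clusters, where 1032 of 10945 genes (9.43%) differed by more toward the mitotic cluster in radial glia and 1634 (14.9%) by more in IPC. Of 117 mitosis genes 91 had the larger difference in IPC and 0 in radial glia, and Top2a differed by -1.93 ± 0.21 between the pairs on the log2 scale. Replication genes separated the pairs: 54 of 61 were higher in mitotic IPC and 0 lower, and 60 of 66 had a more positive difference in IPC. Mcm3 was at 1.12 in the IPC pair and -0.72 in radial glia, and Mcm6 at 0.47 and -0.79. Clspn was at 2.85 and 0.60.

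Most genes of neurogenic commitment were lower in the mitotic cluster of the IPC pair too, 16 of 18 beside 15.4% of all genes tested, with Eomes at -1.04 there. Insm1 was the exception among these genes that was called higher in mitotic IPC, at 0.70 against -1.64 in radial glia, a difference of -2.27 ± 0.20. Hes1, higher in RGC 1 by 0.57, was higher in mitotic IPC by 2.34, and Cdk6 and Hmga2, lower in RGC 1, were at 0.93 and 1.82 in the IPC pair. Of 20 areal and regional factors, 8 had a more positive and 7 a more negative difference in radial glia than in the IPC pair, beside 9.43% and 14.9% of all genes tested. Lhx9 was at -1.14 in the IPC pair (difference 3.25 ± 0.32), and Nr2f2 at -1.34 (2.99 ± 0.26), while toward the other side Meis1 differed by -0.57, Meis2 by -0.82 and Etv1 by -1.17. Apcdd1 of the Wnt list was at -1.10 (3.33 ± 0.17). The largest positive differences by the naming rule were those of Tgfbr3, a TGF-beta coreceptor gene, Gm29683, Tmem132cos, Gm26700 and Tmem132c. Tmem132c had a mean of 366 ± 97.4 CPM (SD, n = 11 embryos) in RGC 1, 38.6 ± 15.5 in non-mitotic RGC, 57.6 ± 27.7 in mitotic IPC and 173 ± 92.1 in non-mitotic IPC, and Tmem132cos, from its name antisense to it, cannot be told apart from it where reads are not assigned by strand. The largest negative differences were those of Pdzph1, Stac, Eva1c, Acsbg1 and Ano1, and Pdzph1 had 26.2 ± 10.2 CPM in RGC 1, 64.2 ± 20.9 in non-mitotic RGC, 13.6 ± 3.65 in mitotic IPC and 1.88 ± 1.31 in non-mitotic IPC.

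**Figure D5:**
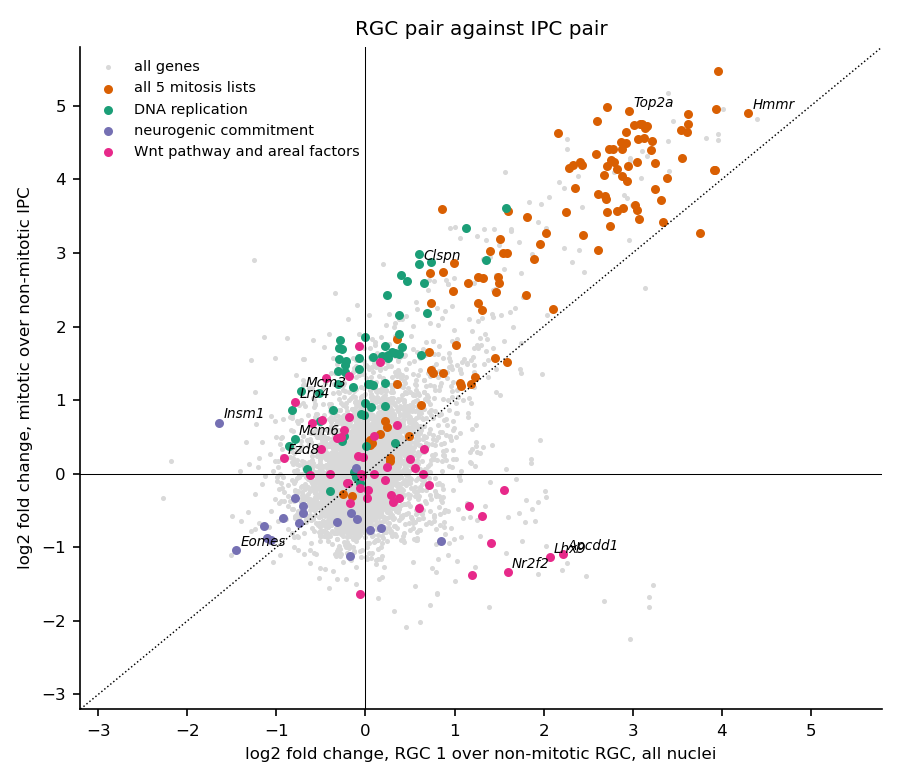
Log2 fold change of RGC 1 over non-mitotic RGC (x axis) and of mitotic over non-mitotic IPC (y axis) for 9353 genes tested in both, of which 1 lies outside the axes, with gene lists in colour and the line of equal values dotted. Mitosis genes are high in both pairs, replication genes are high in IPC and near 0 in radial glia, and Lhx9, Apcdd1 and Nr2f2 are above 0 in radial glia and below 0 in IPC.

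A difference between EtOH and saline embryos in the balance of the clusters was not detectable among the embryos kept. Per the methods, the authors had removed 1 saline sample because its nuclei were spread over the clusters unlike those of the others. RGC 1 made up between 53.7 and 75% of the nuclei of both clusters in the 5 saline embryos (median 67.3%) and between 54.6 and 69.9% in the 6 EtOH embryos (median 68.8%). The difference in means was -0.30 points (exact two-sided permutation test, p = 0.946, and 0.943 within batches), and it was 1.13 points in batch 1 and -1.13 points in batch 2. This test and the permutation tests that follow took littermates as independent, although each treatment had only 2 dams. As percents of the nuclei of all 25 clusters, RGC 1 was at 9.47% ± 3.95 (SD, n = 5) in saline and 8.11% ± 1.96 (n = 6) in EtOH embryos, and non-mitotic RGC at 4.45% ± 0.416 and 4.08% ± 0.651 (exact two-sided permutation tests, p = 0.513 and 0.279, both at most 0.543 within batches). For the ratio of UMIs per nucleus between the clusters, saline embryos gave a mean of 1.52 ± 0.0226 and EtOH embryos 1.47 ± 0.0625 (SD, exact two-sided permutation test of the log2 ratios, p = 0.160).

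The difference in expression between RGC 1 and non-mitotic RGC was compared between treatments by the interaction of treatment and cluster. By edgeR's quasi-likelihood test with Benjamini-Hochberg adjustment, 0 of 11416 genes (0.0%) were called, the smallest adjusted p was 0.0822, and 483 genes (4.23%) had an unadjusted p under 0.05. DESeq2 called 0 genes, with 242 (2.12%) at an unadjusted p under 0.05. With counts summed per dam 21 genes were called, and with no filter on low counts 13. Of the 112 genes named by rule for the cluster comparison, 7 had an unadjusted p under 0.05, namely Cdca2, Eomes, Lin28b, Mfng, Nfix, Polq and Tgfb2, and the smallest adjusted p among the 112 was 0.964. Eomes, for example, had an interaction of -0.59 ± 0.24 on the log2 scale (edgeR, adjusted p = 1.00) and Top2a one of 0.32 ± 0.19. In data simulated for this interaction, the test recovered 68 to 72% of changes of 1 on the log2 scale and 6 to 14% of changes of 0.6, so smaller differences would mostly not have been detectable. The simulation gave all genes the same dispersion, both clusters of an embryo the same embryo effect, and dams no effect. Its rates may therefore not hold for these embryos.

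Within RGC 1, 74 of 11837 genes (0.625%) differed between EtOH and saline embryos, 39 higher (0.329%) and 35 lower (0.296%) after EtOH, and within non-mitotic RGC 18 of 8843 (0.204%), 11 higher (0.124%) and 7 lower (0.0792%) (edgeR with batch as a term). At an unadjusted p under 0.05 there were 2790 genes (23.6%) in RGC 1 and 1572 (17.8%) in non-mitotic RGC. The number of calls depended on single embryos. Without saline embryo S2-4 there were 1703 and 832 calls, while the calls without any other 1 embryo numbered 0 to 4 in RGC 1 and 0 to 16 in non-mitotic RGC. Saline nuclei were also deeper, with median UMIs per nucleus of 6651 to 9599.5 in RGC 1 against 4263.5 to 6944 in EtOH embryos, and the part of depth in these calls was not tested. In RGC 1 the smallest adjusted p, 0.0463 by edgeR, was shared by the first genes of both directions. Kcnq1ot1, an imprinted non-coding RNA, was among the lower genes and lay between 687 and 991 CPM in saline and between 558 and 725 CPM in EtOH embryos (log2 fold change -0.47 ± 0.08). Gria4, an AMPA receptor subunit gene (-0.49 ± 0.09), Cdh7, a cadherin gene (-1.09 ± 0.18), Slc24a2 (-0.76 ± 0.12) and Cnot7 (-0.38 ± 0.06) were lower too. Pcyt2, an enzyme gene of phosphatidylethanolamine synthesis, was higher (0.58 ± 0.11), at 34.7 to 53.5 CPM in saline and 58.7 to 73.5 CPM in EtOH embryos, as were Pcif1 (0.69 ± 0.11), Amd2 (0.94 ± 0.16), Gm13427 (0.80 ± 0.14) and BC046251 (1.74 ± 0.31).

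In non-mitotic RGC, Fndc9 was higher after EtOH (1.32 ± 0.22, edgeR, adjusted p = 0.0214), at 10.9 to 29.4 CPM in saline and 27.6 to 68.3 CPM in EtOH embryos, and Pnpla1 (1.30 ± 0.22), Abhd15 (1.14 ± 0.22), Cx3cr1 (1.47 ± 0.28) and Adat1 (0.58 ± 0.12) were higher as well. Cx3cr1 is a chemokine receptor gene of microglia and stands in that marker list. The sodium channel gene Scn1a fell by 1.65 ± 0.29 on the log2 scale, from 15.9 to 29.8 CPM in saline to 2.23 to 10.5 CPM in EtOH embryos, and Gm38393 (-0.92 ± 0.16), Ube2d1 (-0.66 ± 0.12), Gm20754 (-1.14 ± 0.21) and Sdk1 (-0.81 ± 0.15) were lower. Of the 5 mitosis lists, 0 of 117 genes tested were called in RGC 1 and 0 of 83 in non-mitotic RGC, and since only 0.625% and 0.204% of all genes were called, these counts say nothing particular about mitosis genes. Hes1 had a log2 fold change after EtOH of 0.45 ± 0.12 in RGC 1 and 0.54 ± 0.12 in non-mitotic RGC, neither of which passed (edgeR, adjusted p = 0.0702 and 0.0604), and its interaction was -0.05 ± 0.13.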

How the data were processed

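Nuclei of 11 embryonic cortices were profiled by droplet-based snRNAseq. Per the methods, Cell Ranger with mm10 gave the count matrices, and nuclei were filtered on their gene and UMI numbers and on the share of unwanted transcripts such as those of hemoglobin, then integrated over batches and dams and clustered. The authors then removed non-neuronal cells, a thalamic cluster and a cluster low in transcripts. The remaining nuclei were clustered again into the 25 clusters. The authors deposited raw UMI counts, whole numbers without normalization, in 1 table per embryo and cluster. The names of Clusters 1, 2, 6, 12 and 17 are those of the authors. A further saline embryo, S2-3, was not used here. Counts of 23513 genes were summed per embryo and cluster, with at least 10 nuclei required. Whether counting used strand is not given in the sources used here, and 54 of the 112 named genes overlap a gene on the other strand. Doublets were not called here, and a caller is not named in the methods.

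Clusters were compared with edgeR 4.0.16 in R 4.3.3 (TMM, filterByExpr, robust glmQLFit) and the embryo as a block, since each pair of clusters came from the same embryo. The call rule followed the study's thresholds. Standard errors were the absolute log2 fold change divided by the square root of F. Levels are CPM of the summed counts, and log2 ratios per embryo had 1 CPM added. EtOH was tested with batch as a term, littermates were taken as independent, and p-values then measure the spread between embryos. The exact permutation tests were two-sided. DESeq2 1.42.0 and other normalizations, filters, nuclei and embryos were alternatives. Python 3.11.15 was used for the rest. In simulated data edgeR recovered 92 to 100% of genes changed by 1 on the log2 scale between clusters, over 10485 genes, and 68 to 72% for the interaction, over 11207 genes. Libraries of littermates differed by more than sampling noise, and not evenly. The pairs within saline dam S2 had a chi-square per gene of 9.18, 10.9 and 13.3 in RGC 1. In non-mitotic RGC these pairs were at 4.12, 6.54 and 4.16. All other pairs of littermates lay between 1.62 and 2.72.

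Named genes were 14 fixed markers, up to 3 called genes per direction and list by fold with a mean of at least 20 CPM in the higher cluster, and up to 10 per direction over all genes with 1 direction in every embryo. For treatment they were up to 5 per direction by adjusted p, and between the pairs up to 5 by fold. Some results under this rule are not reported here. Genes named outside it were chosen after their values were seen. The clusters, gene lists and rules were chosen with earlier results of these data known. Symbols were matched to GENCODE M21 (98.3%), and 8075 of 10559 tested genes had a RefSeq promoter.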

Additional observations from a re-analysis of the deposited data

Results flagged for a closer look

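Single embryos stood apart from the rest of their treatment group in the log2 ratio of RGC 1 over non-mitotic RGC for 19 of 228 groups examined, by Dixon's test, where chance alone flags about 1 in 20 groups. Of saline embryos, S2-1 stood apart for Etv5 (0.58), Kcnrg (-1.06), Magi3 (0.22), Map2 (-0.054) and Sfrp1 (0.28). Embryo S2-2 did for Hes6 (-1.47), Mcm2 (-0.21), Mki67 (1.13) and Pif1 (2.43), S1-2 for Meis1 (-1.35) and Neurod2 (1.15), and S2-4 for Arhgap11a (2.07). For Mki67, Pif1 and Mcm2, the ratio of S2-2 was the one nearest 0 among the saline embryos. Of EtOH embryos, E1-1 stood apart for Ccnb1 (5.57) and Tgfb2 (0.18), E1-2 for Dlx1 (1.96), E2f7 (1.83) and Smoc1 (-2.11), E2-1 for Fgfr3 (1.22) and E2-3 for Cenpa (6.63). Non-mitotic RGC had 0 CPM of Ccnb1 in E1-1 and of Cenpa in E2-3, where the ratio depends on the 1 CPM added.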

How the results depend on the processing

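Calls between the clusters rest on the same nuclei that defined them, EtOH comparisons rest on 2 dams per treatment, and depth differed between treatments. The counts of 1063 higher and 984 lower genes stayed within 1.5 times under the size factors of DESeq2, no filter on low counts, DESeq2, normalization without cell cycle genes, leaving out nuclei high in UMIs, sums per dam, batch 2 and saline embryos alone, and each embryo left out (1022 to 1116 and 865 to 976). Without the replicate block, that is without pairing the clusters by embryo, 935 were higher and 754 lower. A fold above 2 left 341 and 60, nuclei thinned to equal depth and number 614 and 504 of 5784 genes tested, and nuclei without G2/M transcripts 673 and 506. The lower genes numbered 555 in batch 1 alone and 595 in EtOH embryos alone, both with fewer samples. Of the genes named by rule, the called ones that turned direction were Lin28b in EtOH embryos alone (0.045) and Rbl1 in nuclei without G2/M transcripts (-0.041). Of the uncalled ones, Gad2 turned under DESeq2 (0.11) and in batch 1 (0.31), Hes5 without nuclei high in UMIs (-0.0017), in batch 2 (-0.073) and in EtOH embryos (-0.044), Sox2 in nuclei without G2/M transcripts (-0.32), in batch 1 (-0.051) and in saline embryos (-0.020), and Neurod2 in nuclei without G2/M transcripts (0.16). With an embryo left out, Gad2 lay between -0.19 and 0.055 and Hes5 between -0.032 and 0.094. Interaction calls numbered 13 with no filter, 21 with sums per dam, 1 with a term for batch by cluster, 2 in thinned nuclei and 0 to 3 with an embryo left out. EtOH calls in RGC 1 numbered 531 with no filter, 562 by DESeq2 and 0 to 1703 with an embryo left out, and in non-mitotic RGC 623, 195, 58 without the batch term and 0 to 832. The cause was not tested. The share difference of -0.30 points was 1.49 as a difference in medians and -3.44 to 1.95 with an embryo left out. The G2/M share difference of 44.7 points was 36.2 unthinned and 36.9 at 4000 UMIs, that of S genes 1.72 at 4000 UMIs, and that of Top2a 55.4 unthinned and 35.3 for 2 UMIs.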
